A study of Mus musculus with 35 samples.

Results

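The Zfp genes are the mouse genes named "zinc finger protein" plus a number, and their transcripts were counted here in brown fat of mice with and without the Suv420h histone methyltransferases. Members were all genes of the 2 deposited count tables whose name is Zfp followed by a digit and whose mean over the table's libraries was at least 1 CPM, a unit that scales the counts of a gene by the total counts of its library. In the first experiment all 226 Zfp genes listed met this level, among 10731 genes. Of all genes listed there 10727 met it, and a gene that is not listed has no level to compare. In the second, 252 of 289 Zfp genes met it, among 13233 genes, and 37 lay below. In all, 220 genes were members in both tables and 258 in at least 1. Just inside the limit in the second experiment lay Zfp583 at 1.01, Zfp956 at 1.02 and Zfp111 at 1.03 CPM, and just outside lay Zfp94 at 0.951, Zfp868 at 0.991 and Zfp976 at 0.999 CPM. The lowest members of the first experiment were Zfp287 at 1.08, Zfp354c at 1.15 and Zfp595 at 1.18 CPM.

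The first experiment held 9 control and 6 knockout libraries from mice 4 weeks old on normal diet, of which 5 control and 5 knockout libraries were labelled female and the other 5 male. The second held females 21 weeks old with 5 libraries in each of 4 groups. Both genotypes were fed either a normal diet or, for 14 weeks, a high fat diet with 45 kJ% of fat. The knockout is labelled Suv420h dKO, a double knockout; the sources used here do not name the line, the alleles or a Cre driver, nor do they say whether libraries came from separate animals, so p-values measure the spread between libraries. RNA was primed with oligo-dT and read at the 3′ end, so that a transcript gives about 1 tag whatever its length, and CPM values of different genes can be set side by side without dividing by length.

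Most Zfp proteins bind DNA through C2H2 zinc fingers, loops in which a pair of cysteines and a pair of histidines hold a zinc ion. Many of them also carry a KRAB domain, which recruits the corepressor Trim28 (KAP1) and with it the histone methyltransferase Setdb1, and these proteins silence retroelements and maintain imprints. Their genes arose by tandem duplication, stand in clusters, and are themselves often packed in heterochromatin. Suv420h enzymes add the higher methyl states to lysine 20 of histone H4, a mark of constitutive heterochromatin. In fat, single members have known roles: Zfp423 commits precursors to the adipocyte lineage, and Zfp516 activates Ucp1 in the cold.

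The libraries held between 2398807 and 8140213 counts, and the summed level of the 9 brown adipocyte markers lay between 15000 and 50500 CPM. Suv420h1 and Suv420h2 were read in the second experiment and were not analysed in the first. Suv420h2 had medians of 44.0 and 22.5 CPM in controls on normal and high fat diet against 20.5 and 9.53 CPM in knockouts, while Suv420h1 had medians of 41.6 and 26.4 against 43.5 and 35.3 CPM; a 3′ tag outside a deleted part does not check a deletion. Skeletal muscle markers stood apart. At 21 weeks their sum was 204 to 43300 CPM in controls on normal diet and 107 to 2680 CPM in knockouts on normal diet. On high fat diet it was at most 190 CPM except in 1 control library with 5420 CPM. Over the 22 of 27 markers listed at 4 weeks, it was 119 to 3030 CPM in controls and 81.6 to 2980 CPM in knockouts. No fit at 4 weeks had a muscle covariate. At 4 weeks, 6 libraries had a mitochondrial share of counts of 27.4% to 30.1% and 9 had 14.1% to 20.4%. The 6 were the 5 labelled male and knockout library 2, labelled female.

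Promoter sequences are shown for 4 members of the genotype results below. Zfp772 and Zfp938 had the smallest p-values between genotypes at 4 weeks. Zfp937 and Zfp951 had almost no reads in controls on normal diet at 21 weeks, where other members also lacked reads. In these comparisons Zfp938 and Zfp951 missed an adjusted p below 0.05 in edgeR. Each sequence runs from 250 bases before to 50 bases after the gene's start, 5′ to 3′ on the gene's strand. The source is RefSeq on GRCm38.p6, where 214 of the 258 members had an entry, but not Zfp991. Capitals mark matches on either strand to CGGAAG, the core of ETS factor sites, and to CCGCCC, the GC box. Zfp772 lies at chr7:7209949-7210248, Zfp938 at chr10:82241231-82241530 and Zfp951 at chr5:104859978-104860277, all on the minus strand, and Zfp937 at chr2:150217849-150218148 on the plus strand.
Zfp772: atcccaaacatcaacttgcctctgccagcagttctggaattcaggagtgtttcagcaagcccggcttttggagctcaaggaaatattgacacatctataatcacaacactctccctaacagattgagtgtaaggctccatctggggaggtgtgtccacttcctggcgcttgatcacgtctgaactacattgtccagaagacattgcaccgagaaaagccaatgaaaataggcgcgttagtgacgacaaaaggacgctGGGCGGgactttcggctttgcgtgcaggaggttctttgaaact
Zfp938: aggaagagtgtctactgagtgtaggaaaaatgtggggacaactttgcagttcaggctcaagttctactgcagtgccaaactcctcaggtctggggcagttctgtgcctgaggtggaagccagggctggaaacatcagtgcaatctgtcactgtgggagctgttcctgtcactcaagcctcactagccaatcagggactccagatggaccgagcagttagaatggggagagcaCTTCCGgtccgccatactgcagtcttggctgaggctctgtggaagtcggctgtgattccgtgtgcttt
Zfp951: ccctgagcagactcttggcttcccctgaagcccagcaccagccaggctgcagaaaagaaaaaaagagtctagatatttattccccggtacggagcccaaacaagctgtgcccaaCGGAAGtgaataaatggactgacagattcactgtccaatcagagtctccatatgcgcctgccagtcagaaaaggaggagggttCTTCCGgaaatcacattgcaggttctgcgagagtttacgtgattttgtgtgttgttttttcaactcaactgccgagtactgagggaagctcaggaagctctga
Zfp937: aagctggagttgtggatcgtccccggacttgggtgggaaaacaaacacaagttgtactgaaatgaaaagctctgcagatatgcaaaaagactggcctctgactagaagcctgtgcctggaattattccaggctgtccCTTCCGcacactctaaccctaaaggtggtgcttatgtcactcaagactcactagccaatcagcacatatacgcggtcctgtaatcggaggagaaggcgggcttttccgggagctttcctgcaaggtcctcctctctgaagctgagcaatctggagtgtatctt
Zfp772 held 1 GC box and no ETS core, whereas Zfp951 held 2 ETS cores and Zfp938 and Zfp937 held 1 each, without a GC box. Other genes of the genotype results, not shown, differed from these. Zfp385a, Zfp318 and Zfp598 held 3 GC boxes each and Zfp444 held 1, and of these only Zfp598 held ETS cores, 3 in number. Across all 214 member promoters 35.5% held CGGAAG, 48.6% held CCGCCC and 5.61% held TATAAA on either strand. Over 27025 promoters of the same length, 1 per gene, these shares were 17.2%, 35.9% and 14.2%. Member promoters had a median of 16 CpG dinucleotides, against 7 over all promoters. The 27025 were not limited to genes expressed here, whereas members had a mean of at least 1 CPM. Whether other genes of that level differ from all promoters in the same way was not tested. A match is a description of the letters, not a site in use.

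Zfp genes were expressed at low levels. The median member reached 6.61 CPM at 4 weeks and 5.07 CPM at 21 weeks, against 17 and 11.8 CPM over all genes of at least 1 CPM. The members with the highest mean were the same in both tables: Zfp91, a ubiquitin ligase of the noncanonical NF-κB pathway, at 248 and 257 CPM, Zfp106, an RNA-binding protein needed by motor neurons and muscle, and Zfp703, a transcriptional corepressor. Zfp106 reached 210 ± 42.7 CPM (SD, n = 9) in controls and 265 ± 54.3 (SD, n = 6) in knockouts at 4 weeks, and Zfp703 177 ± 30.3 and 185 ± 52.1 CPM. The summed level of all members differed little between libraries, from 2847 to 3716 CPM at 4 weeks and from 2971 to 3478 CPM at 21 weeks, and the groups overlapped. In controls on normal diet at 21 weeks, 205 to 238 of the 252 members had a read, against 242 to 249 in knockouts on normal diet and 249 to 252 on high fat diet. Depth in these controls ran from 2398807 to 7693388 counts, against 3616882 to 6738518 in knockouts on normal diet. The summed muscle markers had a median of 8150 CPM in these controls and 598 CPM in those knockouts. The cause of the difference in detection was not tested.

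By predicted protein and position the members fell into distinct classes. Of the 252 members at 21 weeks, 91 carried a KRAB-like sequence beside C2H2 fingers, 150 had fingers without it, 8 had no finger of the searched pattern, Zfp703 and Zfp503 among them, and 3 had no coding transcript. A wider KRAB pattern, chosen after its yield was known, took in 100 members. Clusters of at least 3 members with starts at most 1 Mb apart held 135 of the 252 (53.6%) in 21 clusters, the largest with 15 members on chromosome 17, and chromosome 7 alone held 60 members. In clusters lay 82.4% of the KRAB-like genes and 38.0% of the finger genes without KRAB. KRAB-like members had a median of 12 fingers against 8, and a median level of 2.87 against 6.05 CPM. The 4-week table had the same order, with 80.3% against 34.8% in clusters and 4.46 against 7.62 CPM.

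At 4 weeks, genotype was compared with labelled sex as a second term, and 1 of 213 tested members was called, the word used here for an adjusted p below 0.05 over all genes tested. The other 13 members failed the filter on low counts. Over all 10366 genes tested, 0.83% were called. Zfp772, a KRAB-like gene with 9 predicted fingers at chr7:7202117-7209998 (GRCm38), rose in knockouts. It had a lowest, median and highest level of 4.39, 6.07 and 7.47 CPM in the 9 controls and of 8.36, 9.91 and 11.7 CPM in the 6 knockouts. Every knockout library lay above every control library. The log2 fold change was 0.77 ± 0.16 (SE), with an adjusted p of 0.0279 by edgeR's quasi-likelihood test and 0.00304 by DESeq2. It was the only member whose groups did not overlap, 0.442% of 226, against 0.569% of all genes of at least 1 CPM. The call was lost without control library 3, 7 or 8 or knockout library 1 or 4, with adjusted p between 0.0521 and 0.159, in the female libraries alone (adjusted p = 0.188), without the sex term (0.0507), and within the libraries of low or high mitochondrial share, where the log2 fold changes were 0.63 and 0.99 with adjusted p of 0.165 and 0.337. The transcript end of Zfp772 matches Gm45351 at 92.5% of 305 bases, so that reads may be shared between the pair.

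Zfp938, KRAB-like with 10 fingers, was next by p. Its levels ranged from 0.983 to 3.76 CPM in controls, with a median of 2.13, and from 2.54 to 6.52 CPM in knockouts, with a median of 4.88. The groups overlapped through 1 knockout library, and the log2 fold change was 1.14 ± 0.27 (SE; adjusted p = 0.051, edgeR; 0.0061, DESeq2). At 21 weeks its log2 fold changes were 1.75 ± 0.59 on normal diet (adjusted p = 0.0976) and 0.71 ± 0.56 on high fat diet (adjusted p = 0.999), and those of Zfp772 were 0.39 ± 0.39 and 0.36 ± 0.39 (adjusted p = 0.585 and 0.999). None of these passed the test. Zfp938 was singled out after its values were seen.

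Over all 213 tested members at 4 weeks, 94 had a positive (44.1%, against 49.1% of all genes) and 119 a negative estimate. The median log2 fold change was −0.07 against −0.01 over all genes. At an unadjusted p below 0.05 stood 20 members, 9.39% against 15.9% of all genes. KRAB-like members had a median of −0.17 (26 positive, 44 negative) and finger genes without KRAB −0.05 (61 and 73). Genes of 1 to 5 CPM as a whole had a median of −0.15 there, with 32.8% positive. In the authors' deposited table, 4 of 226 members had an adjusted p below 0.05, against 4.3% of all its genes: Zfp772 and Zfp938 higher, and Zfp367 and Zfp953 lower in knockouts. In the fit used here Zfp367 had 11.7 ± 5.19 CPM (SD, n = 9) in controls and 6.08 ± 0.922 (SD, n = 6) in knockouts, with an adjusted p of 0.16 in edgeR, and Zfp953 had 2.46 ± 0.833 and 1.25 ± 0.243 CPM, with an adjusted p of 0.137.

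**Figure D1:**
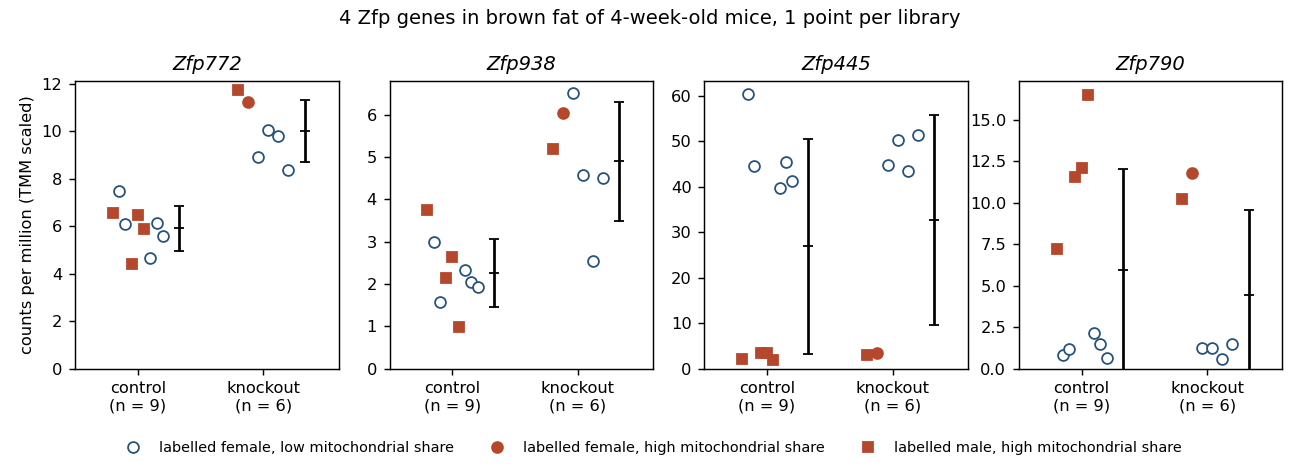
Levels of Zfp772, Zfp938, Zfp445 and Zfp790 in each library at 4 weeks, in TMM-scaled CPM, with the mean and SD of each genotype as a bar beside the points; symbols give labelled sex and fill gives the mitochondrial share of the library. Zfp772 separates by genotype, while Zfp445 and Zfp790 separate by library set and not by genotype.

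The widest differences among members at 4 weeks followed labelled sex and with it the set of libraries. In the fit with genotype and labelled sex, 31 members were higher and 26 lower in females, 26.8% of 213, against 35.2% of all genes. Zfp445, a KRAB zinc finger protein that maintains parental imprints, had 1.97 to 3.51 CPM in the 5 libraries labelled male and 39.8 to 60.3 CPM in 9 of the 10 labelled female. The exception was knockout library 2, labelled female, with 3.46 CPM, which also has the high mitochondrial share. The log2 fold change of female over male was 3.92 ± 0.49 (SE; adjusted p = 0.000153, edgeR). At 21 weeks, where all mice were labelled female, group means of Zfp445 were 2.05 to 3.63 CPM.

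Zfp930 split the same way, with 0.737 to 2.13 CPM in the 6 libraries of high share and 9.29 to 15.3 CPM in the other 9. Zfp809, which silences murine leukaemia viruses, had 6.79 to 15.7 CPM and 22.9 to 42.3 CPM in the same sets. Zfp790 ran the other way, with 7.2 to 16.5 CPM in the libraries of high share and 0.587 to 2.15 CPM in the rest. None of these 4 genes overlapped between the sets. Named by the same rule were Zfp428 (log2 fold change 1.49), higher in females, and Zfp62 (−1.16), Zfp617 (−0.97) and Zfp637 (−0.90), lower. With the library set as a term beside sex no member was called by edgeR, and labelled sex and library set cannot be told apart except through 1 library. Neither separation followed genotype: for Zfp445 the log2 fold change of knockout over control was −0.21 ± 0.38 (adjusted p = 0.828).

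At 21 weeks on normal diet 6 of 243 tested members were called between genotypes, 4 higher and 2 lower in knockouts, or 2.47%, against 2.65% of all 12082 genes tested. The other 9 members failed the filter. The 4 higher were Zfp991, Zfp937, Zfp598 and Zfp318, and the 2 lower Zfp385a and Zfp444. In bulk tissue fewer cells of a type and less RNA per cell cannot be told apart. Muscle markers were higher in the controls of this comparison, and with the muscle score as a covariate none of the 243 was called by edgeR. The log2 fold changes with that covariate, beside those without it, were 1.00 and 0.90 for Zfp318, 1.19 and 1.27 for Zfp598, −1.56 and −1.41 for Zfp444, 3.55 and 3.91 for Zfp937, and 3.68 and 4.24 for Zfp991. For Zfp385a they were −1.34 and −2.03. Both fits used the same libraries, and whether muscle content accounts for any of these calls was not tested.

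Zfp991 stands in a cluster of 4 members at chr4:147132038-147848366. Its reads numbered 0, 0, 0, 0 and 2 in the 5 controls and 7, 13, 0, 10 and 17 in the 5 knockouts, or 0.0966 ± 0.216 against 2.05 ± 1.47 CPM (SD, n = 5). The groups overlapped, since 1 knockout library also had no read. Pooled over libraries the ratio after scaling for library size was 24.0 (95% interval 6.3 to 204, counting error only), with a fitted log2 fold change of 4.24 ± 1.09 (SE; adjusted p = 0.0385, edgeR). Zfp991 had fewer than 10 reads in every control library of both diets and passed the low-count filter through knockout libraries alone. That choice of genes itself favoured a difference. The last 300 bases of its transcript match those of Zfp992 at 99.3% over 297 bases, so the reads may not be told apart between these genes. In the same cluster Zfp979 had 0.634 CPM in controls and 3.38 in knockouts (adjusted p = 0.173), and Zfp933 had 3.98 and 4.59 CPM (adjusted p = 0.395). Zfp984 failed the filter.

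Zfp937, in a cluster of 3 on chromosome 2, had 0, 0, 0, 1 and 1 reads in controls and 10, 2, 8, 3 and 15 in knockouts. In CPM, 1 knockout library at 0.415 lay below the highest control at 0.45. The pooled ratio was 19.4 (95% interval 5.02 to 166) and the fitted log2 fold change 3.91 ± 1.01 (SE; adjusted p = 0.0387, edgeR). Its transcript end matches Zfp442, a neighbour in the cluster, at 95.4% of 282 bases; Zfp442 had 0.7 and 1.85 CPM (adjusted p = 0.33). Zfp951, on chromosome 5, had 0, 0, 0, 0 and 3 reads in controls and 10, 5, 3, 10 and 11 in knockouts. Its pooled ratio was 13.3 (95% interval 4.23 to 67.3) with an adjusted p of 0.0524 in edgeR, which misses the threshold. Like Zfp991, it passed the low-count filter through knockout libraries alone. Zfp937 passed it mainly through knockout libraries, with at most 1 read in these controls and 14, 10, 8, 8 and 2 in controls on high fat diet. For both genes that choice itself favoured a difference. All 3 genes were near the limit of detection in controls, where an absent read does not show an absent transcript. Absent reads were not particular to these genes: 205 to 238 members had a read in the control libraries on normal diet. In the knockout libraries on normal diet 242 to 249 members had one. How much of the 3 pooled ratios reflects this wider difference in detection was not tested.

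The other called members had more reads. Zfp385a, a p53 target and cofactor, had 4.24, 10.8, 11.9, 11.7 and 9.18 CPM in controls and 2.53, 1.31, 2.12, 3.18 and 2.27 CPM in knockouts. All 5 knockouts lay below all 5 controls, with a log2 fold change of −2.03 ± 0.47 (SE; adjusted p = 0.0221, edgeR). Zfp444 fell from 10.7 ± 2.2 to 4.08 ± 1.73 CPM (SD, n = 5 per group; log2 fold change −1.41 ± 0.39, SE; adjusted p = 0.0496, edgeR), without overlap; its transcript end matches Gm31805 at 92.6% of 122 bases.

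Zfp318, which lets B cells make IgD transcripts, had 9.58, 16.8, 15.6, 13 and 12.6 CPM in controls and 26.2, 21.5, 34.5, 24.6 and 18.9 CPM in knockouts. The groups did not overlap, and the log2 fold change was 0.90 ± 0.22 (SE; adjusted p = 0.032, edgeR). Zfp598, a ubiquitin ligase that marks collided ribosomes, rose from 10.5 ± 6.91 to 26.3 ± 4.15 CPM (SD, n = 5 per group; log2 fold change 1.27 ± 0.34, SE; adjusted p = 0.0418, edgeR), also without overlap. In all, 5 members were higher and 5 lower without overlap, 3.97% of 252, against 4.26% of all genes of at least 1 CPM.

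These calls depended on single libraries. Of the 20 fits that left out 1 library each, Zfp385a lost its call in 2, Zfp318 in 5, Zfp937 in 9, Zfp991 in 11, Zfp598 in 12 and Zfp444 in 16. Without control library 3 of the normal diet group 12 members were higher and 6 lower. Between 1 and 2 were called in all without control library 1 or 4 on normal diet, any of the 5 knockout libraries on normal diet, or knockout library 1, 3, 4 or 5 on high fat diet. With only the 10 normal diet libraries fitted none was called by edgeR. Fitted on all 20 libraries, DESeq2 called 12 higher and 9 lower, 21 in all, against 7.32% of all genes. At an unadjusted p below 0.05 edgeR had 29 higher and 20 lower members, 20.2% of those tested, against 20.8% of all genes. The median log2 fold change was 0.17 against 0.02 over all genes, with 138 of 243 estimates positive (56.8%, against 51.0% of all genes).

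**Figure D2:**
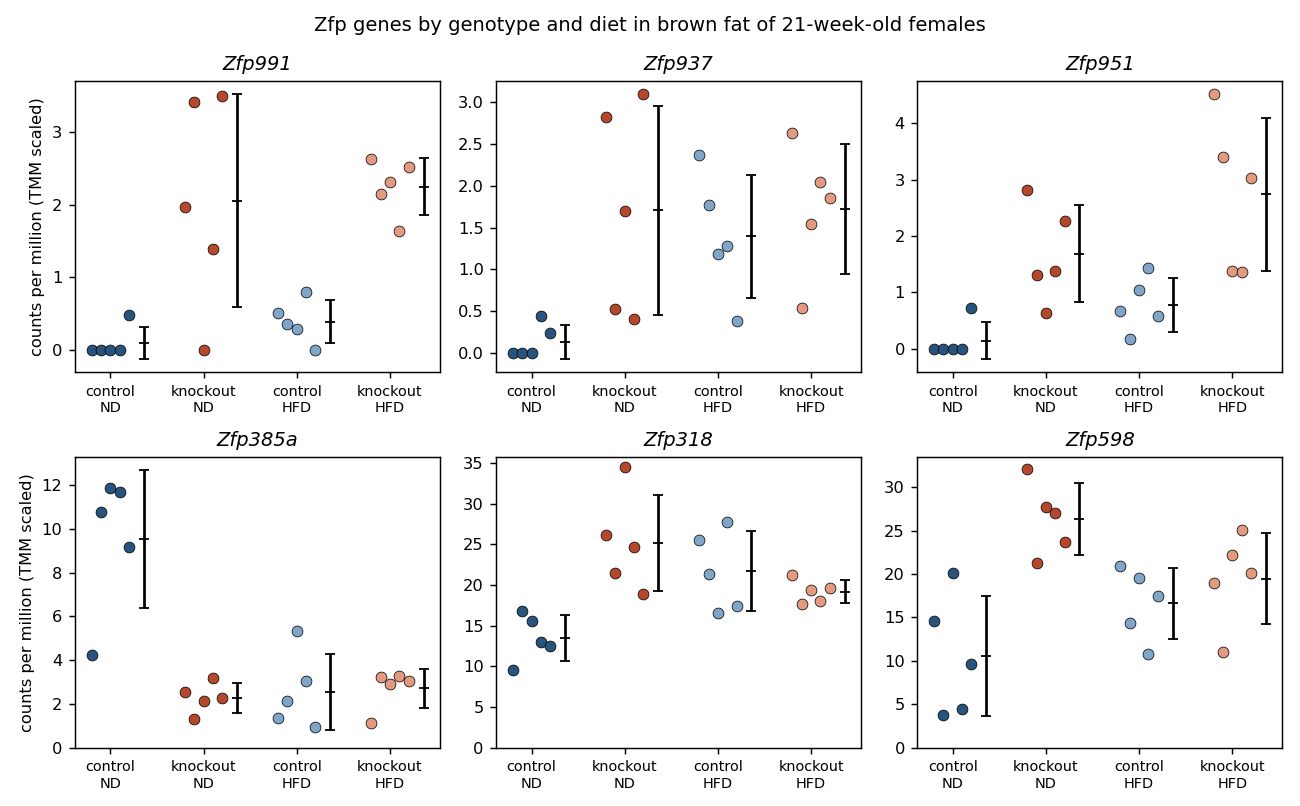
Levels of Zfp991, Zfp937, Zfp951, Zfp385a, Zfp318 and Zfp598 in each of the 20 libraries at 21 weeks, in TMM-scaled CPM, with mean and SD of each group of 5 as a bar (ND, normal diet; HFD, high fat diet). Controls on normal diet have the lowest mean of the 4 groups for Zfp937 and Zfp318 and the highest for Zfp385a, while the means of Zfp991 and Zfp951 are higher in knockouts on both diets.

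On high fat diet no member was called between genotypes by edgeR or DESeq2, against 0.116% of all genes in edgeR and 0.646% in DESeq2, and 9 of 243 members had an unadjusted p below 0.05 (3.7% against 5.07%). The smallest p belonged to Zfp467 and Zfp703. Zfp467, which turns marrow precursors towards adipocytes, had 15, 17.1, 24.9, 21.5 and 24.0 CPM in controls and 9.03, 13.9, 13.8, 11.6 and 11.6 CPM in knockouts. The groups did not overlap, but the log2 fold change of −0.77 ± 0.21 (SE) had an adjusted p of 0.265 in edgeR. Zfp703 had 117 ± 44.6 CPM in controls and 195 ± 45.1 in knockouts (SD, n = 5 per group; adjusted p = 0.49, edgeR). Without overlap, 4 members were higher and 1 lower, 1.98% of 252, against 2.11% of all genes. The median log2 fold change was 0.04 against −0.01.

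Taking both diets together, in a contrast added after the data were seen, 5 members were called, all higher in knockouts, 2.06% against 3.0% of all genes called in either direction and 1.59% called higher. Zfp991 had a log2 fold change of 3.34 ± 0.70 (SE; adjusted p = 0.00992, edgeR) and Zfp951 of 2.61 ± 0.62 (SE; adjusted p = 0.0223, edgeR). On high fat diet the Zfp991 reads were 3, 2, 2, 5 and 0 in controls and 14, 12, 15, 12 and 15 in knockouts, and these groups did not overlap. The Zfp951 reads were 4, 1, 7, 9 and 3 in controls and 24, 19, 9, 10 and 18 in knockouts. Both genes had fewer than 10 reads in every control library and passed the low-count filter through knockout libraries alone, so the choice of genes itself favoured a difference. Without any single library the adjusted p was at most 0.0263 and 0.0481 in edgeR, which does not undo that choice. With the muscle score as a covariate the log2 fold changes were 2.96 and 2.57 (adjusted p = 0.0791 and 0.088 in edgeR).

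Zfp503 and Zfp703, corepressors of 1 family, and Zfp592 moved at higher levels. Zfp503 had 7.63 ± 2.37 and 12.8 ± 1.83 CPM in controls and knockouts on normal diet and 8.34 ± 3.03 and 14.5 ± 1.31 CPM after high fat feeding (SD, n = 5 per group). Its log2 fold change over both diets was 0.77 ± 0.19 (SE; adjusted p = 0.0287, edgeR), and that of Zfp703 was 0.60 ± 0.17 (SE; adjusted p = 0.0469, edgeR). Zfp592 had 30.3 ± 11 and 47.1 ± 6.42 CPM on normal diet and 28.4 ± 6.59 and 42.2 ± 3.89 CPM on high fat diet, a log2 fold change of 0.60 ± 0.15 (SE; adjusted p = 0.0304, edgeR), which also passed under each of the 5 alternative fits that kept all libraries. Of those 5 fits Zfp991 and Zfp503 passed in 4, Zfp951 in 3 and Zfp703 in 1. In every one of these 5 genes at least 1 control library reached a knockout level on 1 of the diets. The Zfp703 call was lost without any of 16 of the 20 libraries. The Zfp592 and Zfp503 calls were each lost without control library 4, knockout library 4 or knockout library 5 on high fat diet or knockout library 1 on normal diet, and without knockout library 4 (Zfp592) or 5 (Zfp503) on normal diet. Over both diets 13 members were called without control library 3 on normal diet, 8 without knockout library 2 on high fat diet, 3 without knockout library 5 on normal diet, and 2 without knockout library 1 on normal diet, control library 4, knockout library 4 or knockout library 5 on high fat diet. In the authors' deposited table of this experiment, whose model is not described in the sources used here, 9 of 252 members had an adjusted p below 0.05, against 3.52% of all genes. Higher were Zfp592, Zfp503, Zfp703, Zfp991, Zfp598 and Zfp951, and lower Zfp87, Zfp41 and Zfp189.

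**Figure D3:**
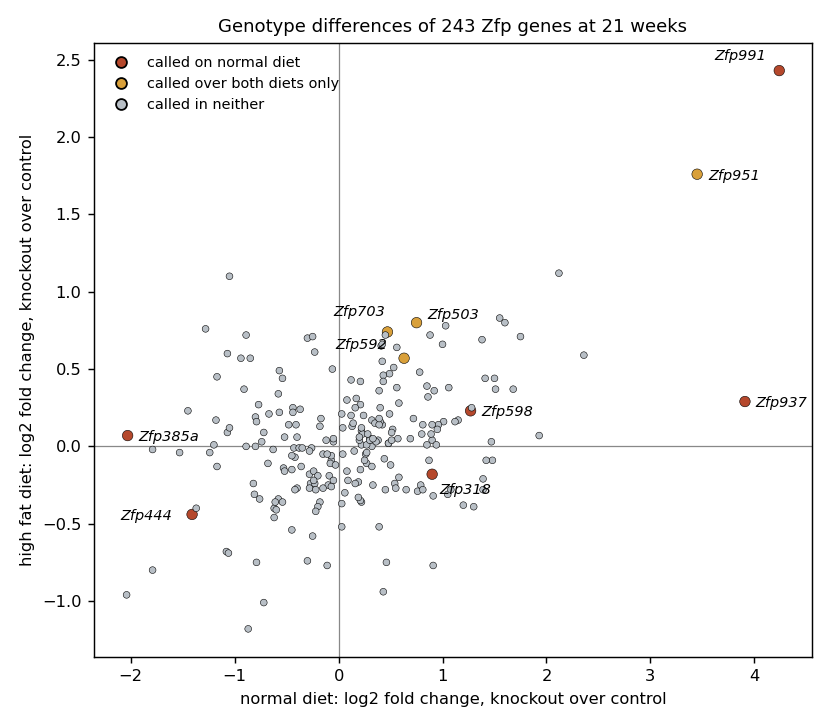
Log2 fold change of knockout over control for each of the 243 tested Zfp genes at 21 weeks, on normal diet (horizontal axis) against high fat diet (vertical axis); colour marks genes called on normal diet, called over both diets only, or in neither. Most genes lie near 0 on the vertical axis, and Zfp991 and Zfp951 are high on both.

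The diets use separate libraries, and 158 of the 243 estimates had the same sign on both (65.0%, against 62.6% of all genes). Across members the Pearson correlation of the 2 sets of log2 fold changes was 0.40 and Spearman's 0.26, against 0.53 and 0.34 across all genes; genes are not independent, and the correlation is a description. The difference between the diets itself was tested by the interaction, where no member was called by edgeR or DESeq2 (0.0% of all genes in edgeR and 0.0993% in DESeq2; 20 members at an unadjusted p below 0.05, 8.23% against 6.39%). The smallest p belonged to Zfp318 (−1.08 ± 0.31, SE) and Zfp385a (2.11 ± 0.65, SE), each with an adjusted p of 0.605 in edgeR. The genotype differences of Zfp385a and Zfp318 on normal diet are therefore not shown to differ from those on high fat diet, 0.07 ± 0.46 and −0.18 ± 0.22.

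Few members were called between the diets by edgeR, which does not show that few changed. In controls 2 of 243 fell, 0.823% against 0.795% of all genes. Zfp512b, whose human ortholog is linked to amyotrophic lateral sclerosis, had 10.7, 17.3, 10.1, 16.2 and 6.52 CPM on normal diet and 3.21, 2.65, 2.82, 4.47 and 6.0 CPM on high fat diet. The groups did not overlap, with a log2 fold change of −1.66 ± 0.39 (SE; adjusted p = 0.0405, edgeR). Zfp385a fell from 9.55 ± 3.15 to 2.56 ± 1.74 CPM (SD, n = 5 per group; log2 fold change −1.87 ± 0.46, SE; adjusted p = 0.04999, edgeR); these controls on normal diet are also those of its genotype difference. Both calls were lost with the muscle score as a covariate (log2 fold change −1.42 and −0.98; adjusted p = 0.621 and 0.721 in edgeR) and with only the groups compared in the fit (0.197 and 0.237). Without any 1 of 11 libraries the Zfp512b call was lost, and without any 1 of 17 that of Zfp385a. Zfp937 had 42 reads on high fat diet against 2 on normal diet in controls (adjusted p = 0.0747).

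In knockouts 1 of 243 members fell on high fat diet, 0.412% against 0.372% of all genes. Zfp467 had 21.7, 22.3, 21.8, 26.3 and 32.1 CPM on normal diet and 9.03, 13.9, 13.8, 11.6 and 11.6 CPM on high fat diet. The groups lay well apart, and the log2 fold change was −1.05 ± 0.22 (SE; adjusted p = 0.023, edgeR). In controls its log2 fold change with diet was −0.39 ± 0.21 (adjusted p = 0.371), and the difference between genotypes in this response did not pass (interaction −0.66 ± 0.30, adjusted p = 0.767). The call in knockouts was lost without knockout library 1, 4 or 5 on high fat diet or 2, 3, 4 or 5 on normal diet, with adjusted p between 0.0507 and 0.1, and with the muscle score as a covariate (0.0827), where the log2 fold change was −1.06 ± 0.24 (SE). The estimates of the diet effect in controls and in knockouts had the same sign for 131 of 243 members (53.9%), against 60.0% of all genes.

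**Figure D4:**
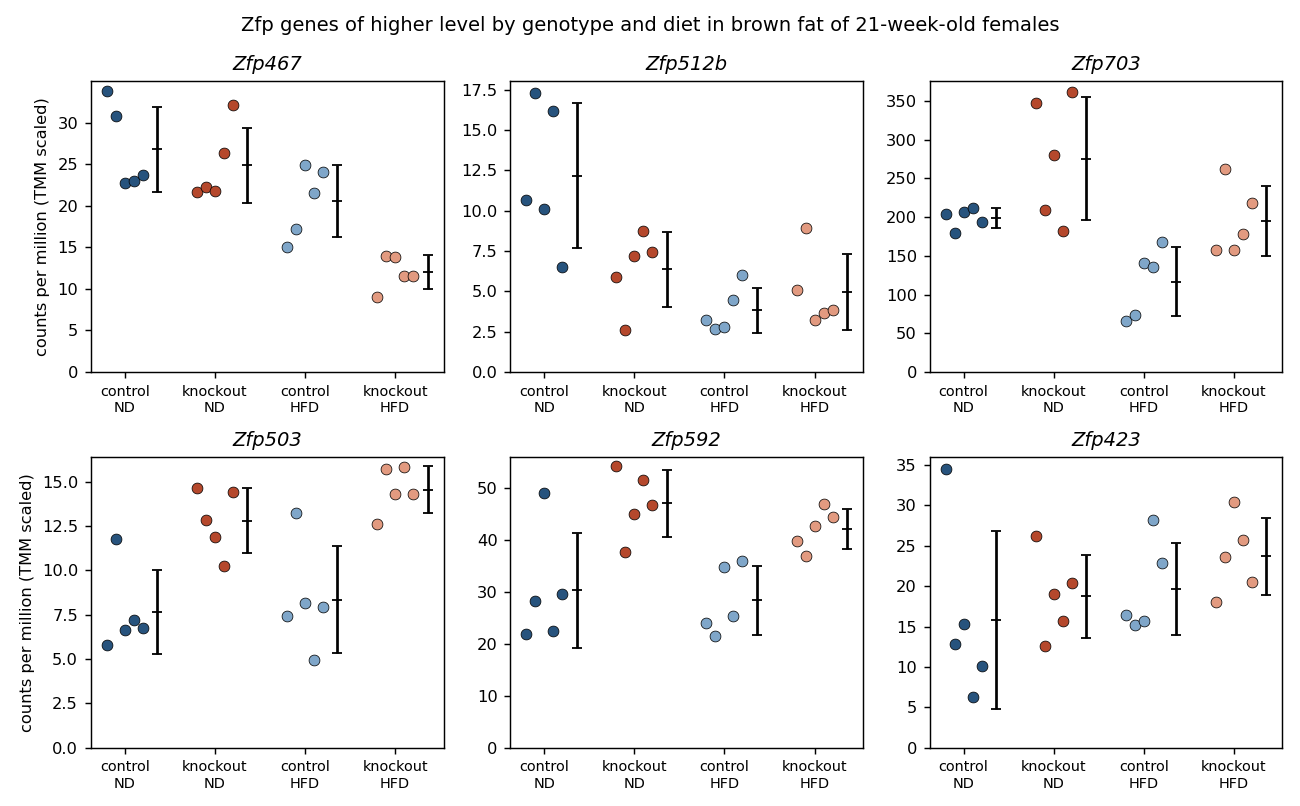
Levels of Zfp467, Zfp512b, Zfp703, Zfp503, Zfp592 and Zfp423 in each library at 21 weeks, in TMM-scaled CPM, with mean and SD of each group of 5 as a bar (ND, normal diet; HFD, high fat diet). Zfp467 is lowest in knockouts on high fat diet, Zfp503 and Zfp592 are higher in knockouts on both diets, and Zfp423 overlaps between all groups.

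Of the adipocyte regulators, Zfp423, Zfp516, Zfp467, Zfp407 and Zfp30 were members at both ages, Zfp638 at 21 weeks only, and Zfp521 and Zfp69 at neither. Zfp638 was not listed among the genes counted at 4 weeks, so its level there is unknown. Apart from Zfp467 with diet in knockouts, none of them passed a genotype or diet test in edgeR. Zfp423 had group means of 15.8 to 23.7 CPM at 21 weeks, with log2 fold changes of knockout over control of 0.21 ± 0.32 on normal and 0.27 ± 0.32 on high fat diet (adjusted p = 0.74 and 0.999). Zfp516 had 8.14 ± 3.26 CPM in controls and 16.8 ± 4.5 in knockouts on normal diet (SD, n = 5 per group), a log2 fold change of 1.01 ± 0.31 with an adjusted p of 0.0727 in edgeR and 0.0314 in DESeq2. On high fat diet it had 8.81 ± 3.0 and 9.87 ± 1.51 CPM, and at 4 weeks 9.68 ± 2.05 (SD, n = 9) and 10.6 ± 1.83 (SD, n = 6). Zfp638, a C/EBP cofactor in early adipogenesis, and Zfp407, which acts on PPARγ target genes, had log2 fold changes of 0.04 ± 0.21 and 0.38 ± 0.35 on normal diet and of −0.05 ± 0.21 and 0.04 ± 0.34 on high fat diet. Zfp30, linked to adipogenesis, had −0.80 ± 0.49 and 0.00 ± 0.48.

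The mRNA-decay proteins Zfp36 (tristetraprolin), Zfp36l1 and Zfp36l2, which bind AU-rich elements through CCCH fingers, did not pass any genotype or diet test in edgeR. Zfp36 had 2.91 ± 2.17 against 8.73 ± 5.01 CPM between genotypes on normal diet and 3.31 ± 2.28 against 5.9 ± 2.75 CPM after high fat feeding (SD, n = 5 per group; adjusted p = 0.166 and 0.999 in edgeR). Zfp36l2 had 24.9 ± 13.5 against 35.6 ± 10.9 and 37.1 ± 8.27 against 52.8 ± 10.5 CPM (adjusted p = 0.281 and 0.999 in edgeR), and Zfp36l1 had group means of 49.5 to 59.7 CPM. Among silencers of imprints and retroelements, Zfp57 and Zfp708 were not members, and Zfp445, Zfp809, Zfp568 and Zfp932 did not pass between genotypes at either age in edgeR. Zfp568, which represses a placental Igf2 transcript, had 2.93 ± 1.78 against 4.02 ± 2.01 CPM on normal diet, and Zfp932 lay near 1 CPM in every group at 21 weeks. Of the genes chosen as enriched in muscle, Zfp106 had 290 ± 72.5 CPM in controls on normal diet and 212 ± 44.4 in knockouts (adjusted p = 0.147), and Zfp697 had 3.44 ± 3.96 and 4.02 ± 1.12 CPM (adjusted p = 0.928).

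The partners through which KRAB proteins silence chromatin were a list of 24 genes with Trim28, Setdb1, HP1 proteins and DNA methyltransferases among them. Between genotypes on normal diet 2 of 22 tested were called, both higher, against 2.65% of all genes. Cbx5 and Atrx had log2 fold changes of 0.71 ± 0.18 and 0.67 ± 0.17 (SE), with adjusted p of 0.032 and 0.0339 in edgeR. At an unadjusted p below 0.05 stood 6 of 22, against 20.8% of all genes. Over both diets 1 was called higher, Atrx, against 3.0%. The partners were read in the main fit only, so whether these calls hold with the muscle score was not tested. At 4 weeks and on high fat diet the tested partners did not pass between genotypes in edgeR, with 4 of 21 and 0 of 22 at an unadjusted p below 0.05, against 15.9% and 5.07% of all genes. Their median log2 fold changes were 0.10 at 4 weeks, 0.22 on normal diet and 0.09 on high fat diet.

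The genotype estimates were also read by position in the genome and by class, as a description without a test. On normal diet, tested members in clusters had a median log2 fold change of 0.03 (65 of 126 positive) and those outside 0.22 (73 of 117 positive). On high fat diet the medians were 0.02 and 0.05. Over all genes 51.0% of estimates were positive on normal diet and 48.3% on high fat diet. Genes of 1 to 5 CPM as a whole had medians of 0.0 and −0.04 on the 2 diets, with 50.1% and 46.0% positive. KRAB-like members had medians of 0.09 and 0.00 on the 2 diets, and finger genes without KRAB 0.19 and 0.04. The 8 members without a C2H2 match, Zfp703, Zfp503 and Zfp36 among them, had medians of 0.50 and 0.60 with 7 of 8 positive on each diet. The cluster on chromosome 4 with Zfp991 had the highest median on both diets, 2.12 and 1.12 over 3 tested members, 1 of them called on normal diet. A median of 3 is the estimate of a single gene. Zfp991 passed the low-count filter through knockout libraries alone and Zfp984 failed it, so the choice of genes favoured a high median here. The cluster at chr15:75616679-76871435, from Zfp41 to Zfp251, had the lowest on normal diet, −1.23 over 4 members, and 0.09 on high fat diet, with 2 members on normal diet at an unadjusted p below 0.05 and no adjusted p below 0.05 in edgeR. At 4 weeks the same 4 genes had negative estimates with a median of −0.24.

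**Figure D5:**
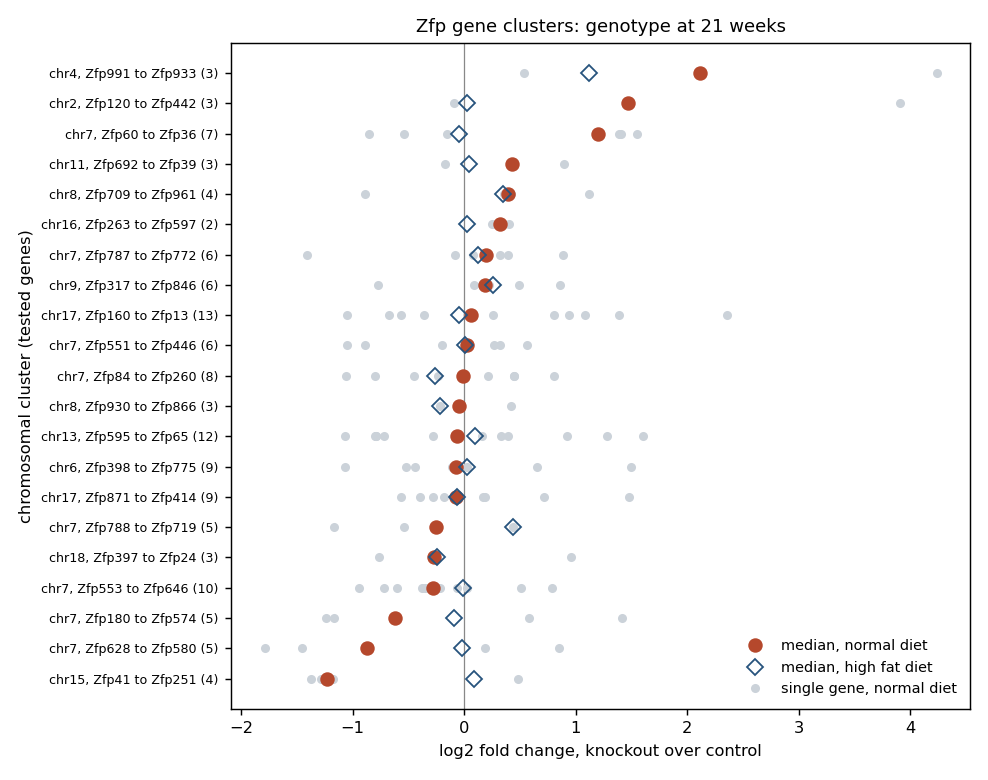
Log2 fold change of knockout over control in the 21 clusters of Zfp genes at 21 weeks, ordered by their median on normal diet; grey points are single genes on normal diet, filled circles the cluster medians on normal diet and open diamonds those on high fat diet, with the number of tested genes in brackets. Normal diet medians run from −1.23 to 2.12, and high fat diet medians lie nearer 0 in most clusters.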

How the data were processed

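Total RNA of brown adipose tissue was sequenced as QuantSeq 3′ mRNA libraries, per the labels' protocols. The deposited tables hold whole-number counts per gene; per the submitters' processing notes the authors used STAR 2.5.3a, featureCounts, limma and mm10 (GRCm38). The sources used here name no annotation, strand setting or filter. The authors' deposited log2 fold changes and p-values stand beside the counts, and only those named as theirs come from them. Counts were tested in R 4.3.3 with edgeR 4.0.16 (robust quasi-likelihood fit, TMM scaling, filterByExpr with a minimum count of 10, Benjamini-Hochberg over all genes tested); SEs follow from the F statistic. The first experiment was fitted with genotype and labelled sex, the second with its 4 groups. DESeq2 1.42.0, other scaling and filters, covariates, other membership limits and leaving out each library were alternatives, as was a replicate block. Fits were tested on simulated data. At 21 weeks, 18 rows with dates for names (0.09% of counts) were left out. Gene positions come from GENCODE M21. KRAB-like and C2H2 patterns were searched in translated GENCODE coding transcripts, not in RefSeq proteins as planned. Named genes were all called members (the 4 highest and 4 lowest of at least 5 CPM where over 8 were called), the 2 smallest p where none was, the 3 highest levels, and 4 role lists; others are said to be chosen later or stand as neighbours, promoters or authors' calls. Members, lists and tests were chosen with earlier results of these data known. Intervals cover counting error only.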

Additional observations from a re-analysis of the deposited data

Results flagged for a closer look

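In groups of 4 to 10 libraries, a library of a named gene was picked out where its gap to the nearest other exceeded Dixon's 95% critical value, which chance exceeds in about 1 of 20 groups. Of the 57 gene and group pairs examined, 5 were picked out. In control library 5 on normal diet Zfp991 had 0.483 CPM and Zfp951 had 0.725 CPM, while each was listed at 0 in the other 4 controls. Zfp592 had 49.1 CPM in control library 3 on normal diet, against 22.0 to 29.7 CPM in the other 4. Zfp503 had 11.8 CPM in control library 2 on normal diet, against 5.81 to 7.2 CPM. Zfp385a had 1.13 CPM in knockout library 1 on high fat diet, against 2.92 to 3.27 CPM.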

How the results depend on the processing

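Counts of called members moved as follows. Between genotypes at 4 weeks, 1 was called, 2 with RLE scaling, DESeq2 or the library set replacing sex, and 0 without the sex term, in the female libraries alone, within either library set or with the replicate block; leaving out 1 library gave 0 to 2. For labelled sex, 57 became 0 with the library set beside sex and 4 with the replicate block, and 46 to 69 without 1 library. With the set beside sex the log2 fold changes of Zfp30 (−0.31), Zfp568 (−0.63), Zfp62 (0.44), Zfp790 (0.17), Zfp809 (−0.83) and Zfp930 (−0.55) had the opposite sign. Labelled sex is then told apart from the set through 1 library only, so a change of direction is not shown. On normal diet, 6 became 3 among members of at least 5 CPM, 21 with DESeq2, 0 with the muscle score as a covariate or only the groups compared, 2 with the replicate block, and 1 to 18 without 1 library. For diet in controls, 2 became 1 at 5 CPM or without the low-count filter, 9 with DESeq2, 0 with the muscle score, only the groups compared or the replicate block, and 0 to 5 without 1 library. For diet in knockouts, 1 became 0 with the muscle score or the replicate block and 0 to 1 without 1 library. Over both diets, 5 became 3 at 5 CPM, 16 with DESeq2, 1 with the muscle score, and 2 to 13 without 1 library. There Zfp703 missed the threshold with RLE scaling (adjusted p = 0.0567 in edgeR), without the low-count filter (0.0559) and with the replicate block (0.0714), as did Zfp951 with the block (0.0513). On high fat diet and for the interaction every alternative run gave 0. The cause of these shifts was not tested, except that fewer libraries or genes enter some fits. Replicate numbers were not taken as pairs in the main fits. Deviations of same-numbered libraries from their group means correlated from −0.57 to 0.58 at 4 weeks and from −0.45 to 0.27 at 21 weeks. Not every library correlated best with its own number. At 4 weeks the deviations also carry the library set, so these values cannot decide whether libraries were paired. The low read numbers of Zfp991, Zfp937 and Zfp951 limit what can be said of controls.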
